A study of Homo sapiens with 7 samples.

Results

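The genes of sterol and fatty acid synthesis described here are 32 genes, chosen by name for their place in the pathway, of the 57773 genes in the count table. They comprise 7 genes of the mevalonate steps, 12 of the squalene and sterol steps, 6 of sterol sensing and transport, and 7 of fatty acid and lipid synthesis. All 32 had enough reads to be tested, with 18160 genes tested in all.

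Poly-A RNA was sequenced from K562, an established line of human chronic myelogenous leukemia cells with erythroid features. The study asked how transcripts differ when the histone demethylase LSD1, the product of KDM1A, carries the substitution Y391K, which the study design calls a gain-of-function change. Edited line 2 and edited line 1, with 2 libraries each, had 2 alleles of Y391K-LSD1-GFP beside 1 wild-type LSD1-GFP allele. The parental cells, with 3 libraries, had wild-type LSD1-GFP on every allele, so that the GFP tag at the C terminus was shared by all groups. The labels do not say whether a line is a single clone, or whether a group's libraries were grown as separate cultures. The p-values therefore measure only the spread between these samples, which may be technical.

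Cholesterol is built from acetyl-CoA through mevalonate, farnesyl diphosphate and squalene, and fatty acids are built from the same precursor by acetyl-CoA carboxylase and fatty acid synthase. Most of these genes are targets of the SREBP transcription factors, which the escort protein SCAP carries out of the endoplasmic reticulum when membrane sterol is low. INSIG proteins hold SCAP back when sterol is plentiful, so the genes of the pathway are known for moving together with the sterol supply of cultured cells.

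Total counts ran from 37150995 to 69468590 in the 4 edited libraries and from 35841302 to 72577827 in the 3 parental libraries, and a floor of 3 counts stood at 0.0412 to 0.0814 CPM. CPM is the read count of a gene scaled to a common library size, here corrected by the trimmed mean of M values (TMM). All 10 erythroid and K562 markers were detected, with summed levels of 3360 to 9287 CPM in edited and 3085 to 5497 CPM in parental libraries. Of other cell types' markers, those of fibroblasts or epithelium summed to 70.02 to 128 CPM in edited and 88.5 to 114.4 CPM in parental libraries, nearly all of it EPCAM, and those of lymphoid cells to 2.40 to 8.79 CPM in edited and 4.03 to 6.91 CPM in parental libraries, mostly CD3D. Monocyte or granulocyte and hepatocyte markers summed to at most 0.668 CPM in any library. The part of these markers in the results was not tested. KDM1A did not differ detectably in edited against parental cells (log2 fold change 0.01, adjusted p = 0.989 in edgeR's quasi-likelihood test).

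Upstream sequence is printed for SREBF2, INSIG1, HMGCS1, MSMO1 and LBR. It comes from RefSeq windows on GRCh38.p14 that hold 250 bases before and 50 after a start site. For HMGCS1, the most upstream of its windows is printed. Of the 32 genes, 28 had a window, and these had 39 windows between them. Capitals mark 2 motifs on either strand, the core of the sterol regulatory element, CACNCCAC, and the CCAAT box, the site of factor NF-Y. Each stretch begins 250 bases before the start site and ends before the first base that GENCODE 29 gives to an exon of the same gene.
SREBF2, chr22:41832855-41833078, plus strand: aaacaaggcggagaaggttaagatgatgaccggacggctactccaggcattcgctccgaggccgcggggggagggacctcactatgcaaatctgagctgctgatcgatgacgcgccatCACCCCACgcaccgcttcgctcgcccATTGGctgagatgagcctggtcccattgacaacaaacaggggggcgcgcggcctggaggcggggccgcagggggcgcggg
INSIG1, chr7:155297628-155297775, plus strand: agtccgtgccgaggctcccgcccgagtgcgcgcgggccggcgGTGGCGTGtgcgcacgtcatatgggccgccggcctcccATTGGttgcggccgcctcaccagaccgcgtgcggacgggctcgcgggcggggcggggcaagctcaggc
HMGCS1, chr5:43313513-43313662, minus strand: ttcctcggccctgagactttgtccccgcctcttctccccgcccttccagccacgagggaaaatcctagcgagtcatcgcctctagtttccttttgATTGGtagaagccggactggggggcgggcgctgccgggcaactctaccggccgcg
MSMO1, chr4:165327419-165327622, plus strand: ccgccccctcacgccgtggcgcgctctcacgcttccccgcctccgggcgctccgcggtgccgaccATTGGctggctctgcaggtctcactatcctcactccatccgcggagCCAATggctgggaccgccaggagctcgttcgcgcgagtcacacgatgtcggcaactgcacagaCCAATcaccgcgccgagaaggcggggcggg
LBR, chr1:225428926-225429071, minus strand: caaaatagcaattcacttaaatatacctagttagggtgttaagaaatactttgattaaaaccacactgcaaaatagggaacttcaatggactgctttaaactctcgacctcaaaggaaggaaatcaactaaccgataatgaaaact

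The core of the element was in 7 of the 39 windows, of 6 genes (17.9% of the windows, against 5.87% of all 35116 RefSeq windows of this length). Of the stretches shown it was in those of SREBF2 and INSIG1, and those of HMGCS1 and MSMO1 held 1 and 3 CCAAT boxes without it. The CCAAT box was in 22 windows (56.4%, against 34.6% of all) and the GC box GGGCGG in 33 (84.6%, against 45% of all). GC boxes are left in lower case and can overlap one another. A match is only a run of letters in the window, and windows of 1 gene can overlap. The printed stretch of LBR, which encodes a nuclear envelope protein with sterol reductase activity, held no marked motif.

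Edited against parental cells gave no call among the 32 genes. None passed edgeR's quasi-likelihood test at 0.05 after adjustment by Benjamini and Hochberg over all genes, where 0.182% of all genes tested were called. At an unadjusted p under 0.05 there was 1 gene, LBR, where 11.9% of all genes were. DESeq2's Wald test called 0 of the 32 and 2.56% of all genes. On log2(FPKM + 1) and log2(FPKM + 0.1), limma called 0 of the 32, and 8 and 12 of 18159 genes. The log2 fold changes ran from -0.79 for MSMO1 to 0.59 for NSDHL, with a median of 0.03 beside -0.0018 over all genes tested, and 17 of 32 were positive. With 1 library left out at a time the median lay between -0.16 without parental 1 and 0.48 without parental 3, so it had no fixed sign.

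LBR was the single gene whose edited libraries all lay outside the parental range. Its level was 328 and 386 CPM in line 2 and 273 and 356 CPM in line 1, against 231, 259 and 265 CPM in parental 3, 1 and 2. All 4 edited libraries were thus above all 3 parental ones, which 6.08% of all genes tested also showed. Its log2 fold change was 0.42 (SE 0.14) in edited against parental cells, and its adjusted p by edgeR was 0.325.

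Each line on its own also gave 0 calls among the 32 genes by edgeR. Line 2 against parental cells had a median log2 fold change of -0.12 and 10 positive values, where 5.82% of all genes tested were called. At an unadjusted p under 0.05 there were 2 genes, and 21.5% of all genes. This median turned with single libraries, at 0.17 with 20 positive values without line 2 replicate 1, -0.39 with 2 positive values without line 2 replicate 2, and 0.28 with 25 positive values without parental 3. It was -0.28 without parental 1 and -0.25 without parental 2. Line 1 against parental cells had a median of 0.13 and 25 positive values, where 1.75% of all genes were called. At an unadjusted p under 0.05 there were 2 genes, and 13.4% of all genes. Its median was -0.04 with 14 positive values without parental 1, 0.06 with 17 without parental 2, 0.69 with 30 without parental 3, and 0.06 with 20 without line 1 replicate 1. Both comparisons use the same parental libraries. Their smallest adjusted p-values were 0.107 for LBR in line 2 and 0.209 for NSDHL in line 1. DESeq2 called 0 of the 32 genes in line 1 (4.99% of all genes) and 1 in line 2 (11.2% of all genes), HSD17B7, a keto-reductase of the sterol C4 demethylation steps named here after its values were seen. It was lower in line 2 than in parental cells (log2 fold change -1.16, adjusted p = 0.0482 by DESeq2, against 0.177 by edgeR).

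Line 2 against line 1 gave 0 calls by edgeR as well, where 6.54% of all genes tested were called. The median log2 fold change was -0.21, beside 0.0071 over all genes, and 24 of 32 values were negative. Without line 2 replicate 1 the median was 0.02 with 16 positive values, and without line 2 replicate 2 it was -0.57 with 4. The direction of the median, though not of every single gene, thus rested on line 2 replicate 1. Unadjusted p-values were under 0.05 for 5 genes, FADS2, ELOVL6, HSD17B7, STARD4 and INSIG2, where 18.4% of all genes were, and DESeq2 called 0, and 10.5% of all genes.

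**Figure D1:**
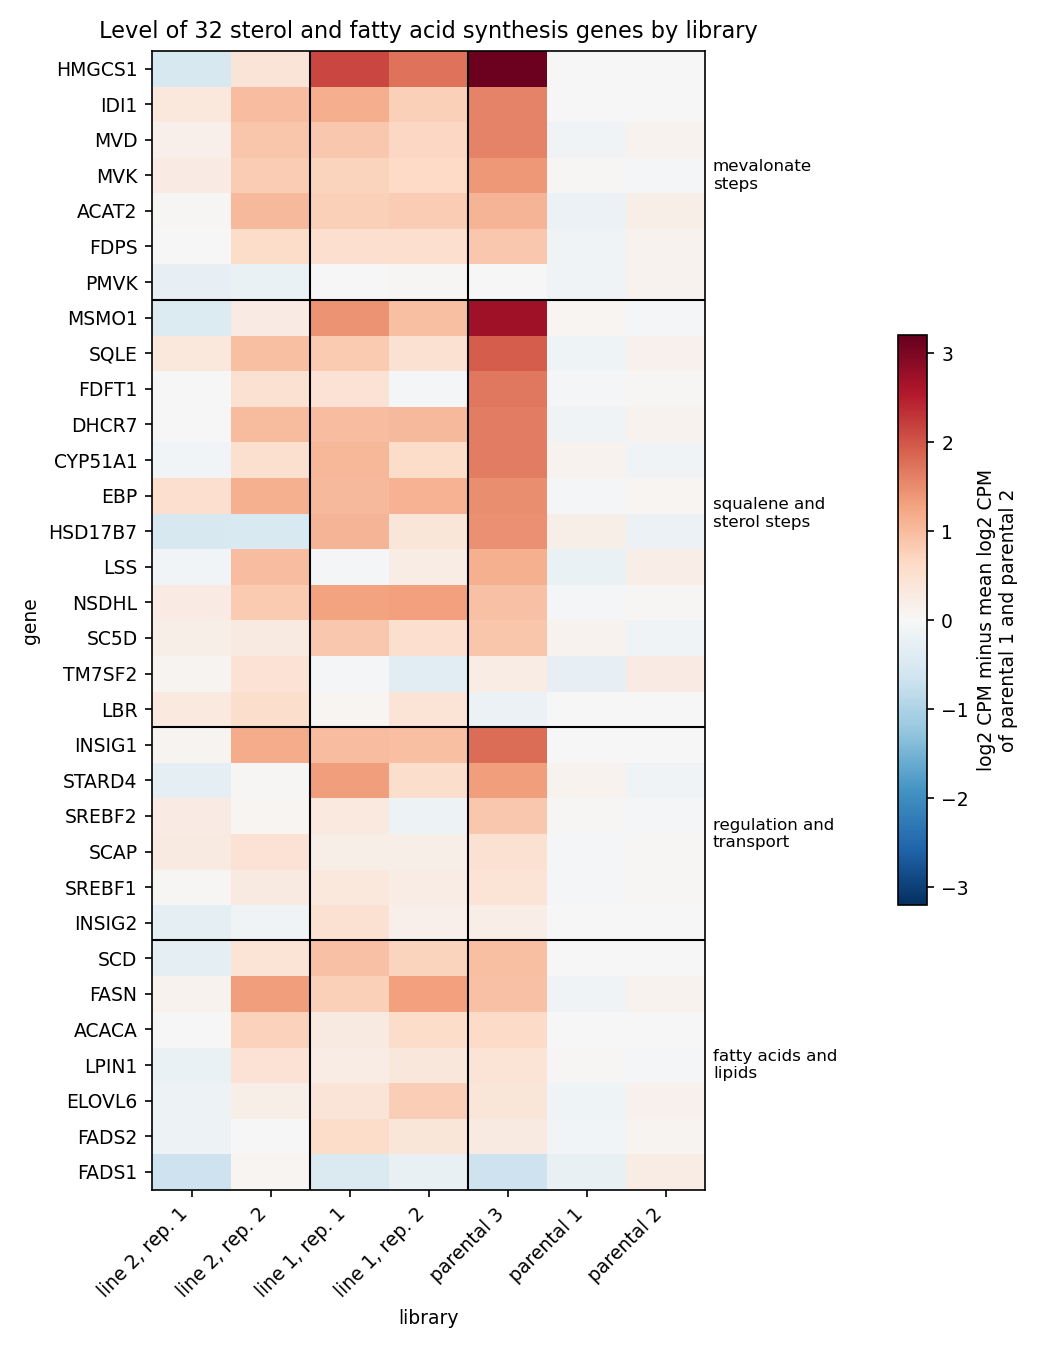
Level of each of the 32 genes (down the page, by role) in the 7 libraries (across), as log2 CPM minus the mean log2 CPM of parental 1 and parental 2, with red above and blue below. Parental 3 carries the deepest red, at 3.15 for HMGCS1, and line 2 replicate 1 is the palest edited library, with a median of 0.02 over the genes.

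The 3 parental libraries were not alike in these genes. Parental 3 was at least 2-fold above the mean of parental 1 and 2 on the log2 CPM scale for 15 of 32 genes, where 5.21% of all genes tested were, and 2-fold below for 0, where 12.6% of all genes were. It was above both others for 28 genes (40.5% of all genes) and below both for 2, LBR and FADS1 (43.6% of all genes). The median difference was 0.95 over the 32 genes and -0.02 over all genes. Parental 3 was the highest of all 7 libraries for 21 of 32 genes, where 22% of all genes had that order. Set against the mean of its own partners, parental 1 was 2-fold below for 3 genes (2.93% of all genes) and 2-fold above for 0 (4.68% of all), and parental 2 gave the same 2 counts (2.62% and 6.14% of all). The means for parental 1 and for parental 2 both include parental 3, so their counts are not separate from its own. All of these are differences between single libraries, with no test.

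By role, the median difference of parental 3 was 1.37 over the mevalonate genes, 1.47 over the squalene and sterol genes, 0.68 over the sensing and transport genes, and 0.45 over the fatty acid genes. The counts past 2-fold on the log2 CPM scale were 5 of 7, 8 of 12, 2 of 6 and 0 of 7 in the same order. ACAT2, at 1.08, lay just inside the 2-fold line and SCD, at 0.96, just outside it.

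The 32 genes together took 0.506% and 0.792% of all counts in line 2 and 0.8289% and 0.808% in line 1, against 1.08% in parental 3 and 0.506% and 0.562% in parental 1 and 2. Line 2 replicate 1 and parental 1 and 2 thus formed the low end, and parental 3 stood alone at the high end. HMGCS1 gave 4.69% and 5.48% of those counts in line 2 and 17.2% and 13.3% in line 1, against 24.2% in parental 3 and 6.53% and 5.95% in parental 1 and 2. In bulk samples, fewer cells of a type and less RNA per cell cannot be told apart.

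**Figure D2:**
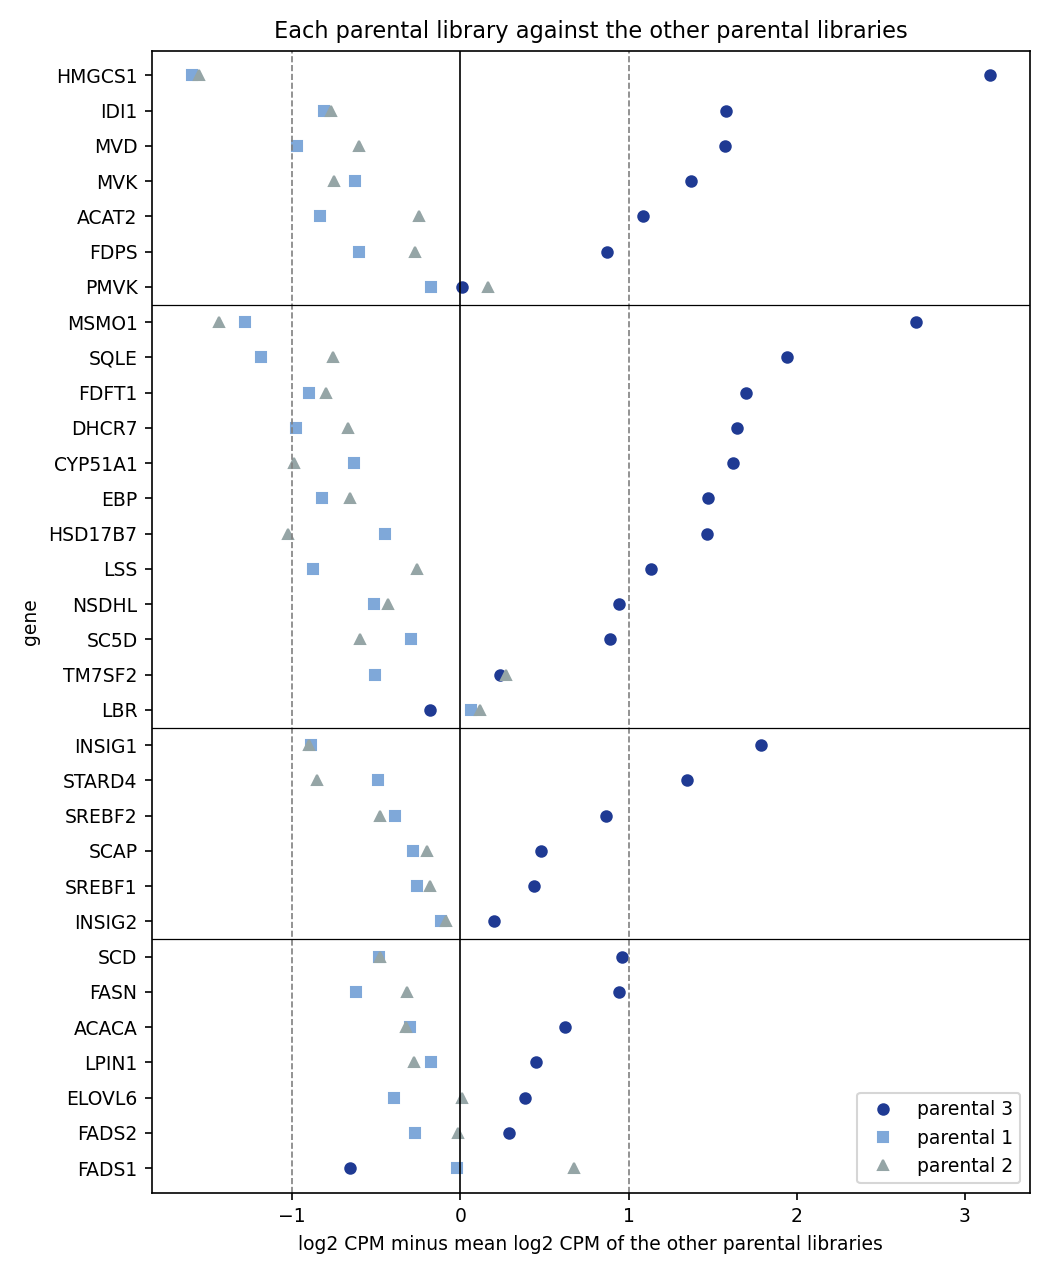
Each parental library's log2 CPM minus the mean log2 CPM of the other parental libraries, on the x axis, for the 32 genes by role, with dashed lines at 2-fold. Parental 3 (circles) lies right of the 2-fold line for 15 genes and left of it for none.

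Heat shock genes were also high in parental 3. All 15 heat shock and chaperone genes of a list chosen with this in view were tested. Of these, 10 were at least 2-fold above in parental 3, where 5.21% of all genes tested were. Their median difference was 1.52, and each had counts in every library. They summed to 10755 and 16326 CPM in line 2 and 10477 and 12802 CPM in line 1, against 25199 CPM in parental 3 and 9905 and 10783 CPM in parental 1 and 2. HSPA1A, an inducible HSP70 chaperone, stood at 137 and 226 CPM in line 2 and 296 and 122 CPM in line 1, against 2779 CPM in parental 3 and 55.1 and 59.3 CPM in parental 1 and 2. The part of these genes in the sterol gene levels was not tested.

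Among the mevalonate genes, HMGCS1 had the widest range of the 32 genes between parental libraries. HMGCS1 (ENSG00000112972) makes HMG-CoA from acetoacetyl-CoA and acetyl-CoA. Its level was 227 and 434 CPM in line 2 and 1424 and 1079 CPM in line 1, against 2879.7 CPM in parental 3 and 321 and 328 CPM in parental 1 and 2. Line 1 lay between parental 3 and the other parental libraries, and line 2 straddled parental 1 and 2. The log2 fold change was -1.83 (SE 0.90, adjusted p = 0.283) in line 2 and 0.09 (SE 0.84, adjusted p = 0.984) in line 1 against parental cells in edgeR's test.

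IDI1, the isopentenyl diphosphate isomerase, stood at 113.8 and 176 CPM in line 2 and 200.2 and 152 CPM in line 1, against 267 CPM in parental 3 and 88.5 and 90.2 CPM in parental 1 and 2. All edited libraries lay above parental 1 and 2 and below parental 3. PMVK, the phosphomevalonate kinase, varied least of the mevalonate genes, with 4.93 and 5.13 CPM in line 2 and 5.98 and 6.08 CPM in line 1, against 5.97 CPM in parental 3 and 5.48 and 6.42 CPM in parental 1 and 2. Its groups overlapped. The other 4 genes of these steps, ACAT2, MVK, MVD and FDPS, were 0.87 to 1.57 above in parental 3 on the log2 scale. ACAT2 shares 52.27% of its exon bases with genes on the opposite strand in GENCODE 29, and no source used here gives the strand setting of the counting.

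Among the squalene and sterol genes, MSMO1 came next to HMGCS1. MSMO1 (ENSG00000052802), a sterol C4-methyl oxidase, stood at 44.9 and 72.3 CPM in line 2 and 165 and 118 CPM in line 1, against 398 CPM in parental 3 and 62.9 and 58.5 CPM in parental 1 and 2. Apart from the order of parental 1 and 2, its order of libraries was that of HMGCS1. Parental 3 was highest, line 1 next and line 2 on both sides of parental 1 and 2. The log2 fold change was -1.56 (SE 0.77, adjusted p = 0.284) in line 2 and -0.29 (SE 0.74, adjusted p = 0.911) in line 1 against parental cells by edgeR.

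SQLE, the squalene epoxidase, stood at 198 and 305 CPM in line 2 and 279 and 219 CPM in line 1, against 604 CPM in parental 3 and 142 and 174 CPM in parental 1 and 2. FDFT1, the squalene synthase that commits farnesyl diphosphate to sterols, stood at 342 and 477 CPM in line 2 and 467 and 329.9 CPM in line 1, against 1096 CPM in parental 3 and 330.1 and 346 CPM in parental 1 and 2. Edited libraries lay above parental 1 and 2 for SQLE and overlapped them for FDFT1, and parental 3 was the highest library of both genes. LSS, the lanosterol synthase that closes the sterol rings, stood at 90.1 and 189.9 CPM in line 2 and 92.2 and 112 CPM in line 1, against 209 CPM in parental 3 and 82.6 and 109.97 CPM in parental 1 and 2.

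DHCR7, which makes cholesterol from 7-dehydrocholesterol, stood at 62.5 and 125 CPM in line 2 and 124 and 127 CPM in line 1, against 194 CPM in parental 3 and 57.7 and 66.6 CPM in parental 1 and 2. Line 2 replicate 1 lay with parental 1 and 2, and the other 3 edited libraries lay close together. Of the 6 other genes of these steps, CYP51A1, EBP and HSD17B7 were 1.47 to 1.62 above in parental 3, and NSDHL, SC5D and TM7SF2 were 0.24 to 0.95 above. CYP51A1 shares 79.35% of its exon bases with other genes on its own strand in GENCODE 29. It had 0.188 CPM per unit of FPKM, where the other 31 genes had 2.07 to 17.4, and 2 pseudogene copies held 6.68% and 7.22% as many counts as the gene, so its count is uncertain.

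**Figure D3:**
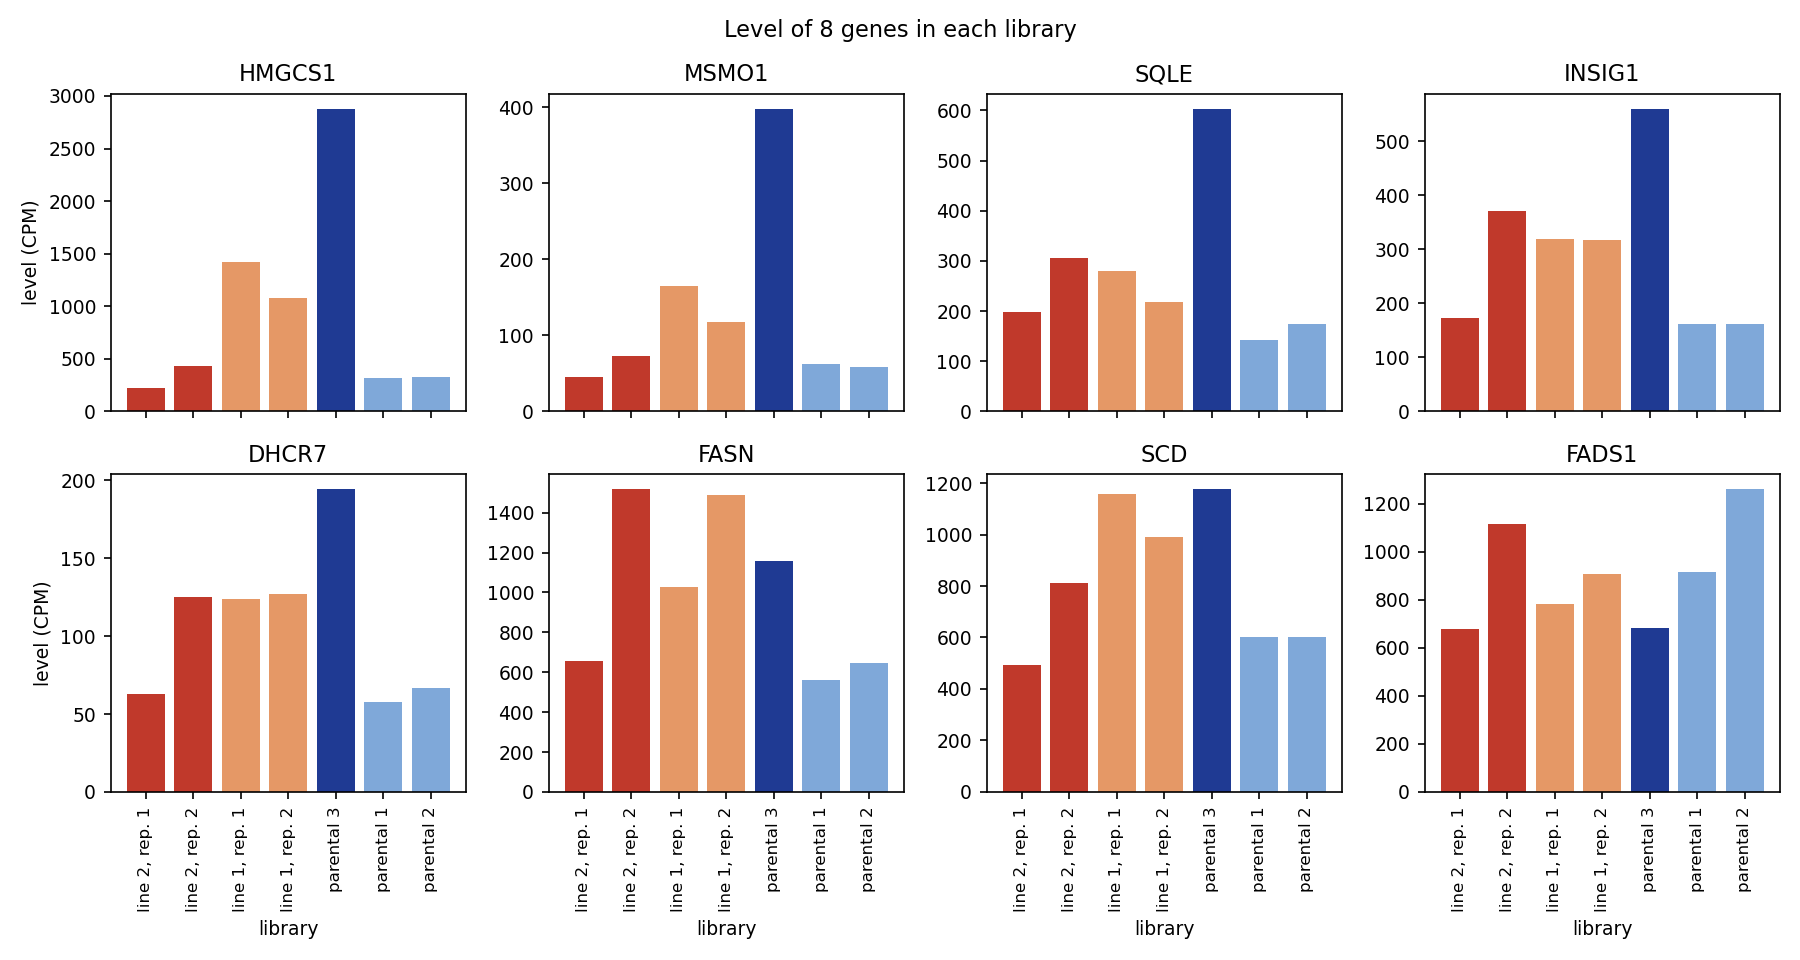
Level in CPM of 8 genes in each library, with line 2 and line 1 on the left and the parental libraries on the right; each bar is 1 library and the y axes differ. HMGCS1 reaches 2879.7 CPM in parental 3, while FASN is highest in line 2 replicate 2 at 1517 CPM and FADS1 in parental 2 at 1260 CPM.

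Among the genes of sterol sensing and transport, INSIG1 differed most between parental libraries. INSIG1 (ENSG00000186480), itself a target of the SREBPs, stood at 172 and 369.8 CPM in line 2 and 319 and 317 CPM in line 1, against 560.1 CPM in parental 3 and 162 and 161 CPM in parental 1 and 2. Every edited library was above parental 1 and 2 and below parental 3. INSIG2, its partner in holding SCAP, was low, with 6.43 and 7.43 CPM in line 2 and 11.3 and 9.02 CPM in line 1, against 9.20 CPM in parental 3 and 7.95 and 8.07 CPM in parental 1 and 2.

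STARD4, a cytosolic sterol transfer protein, stood at 43.3 and 54.8 CPM in line 2 and 136 and 78.7 CPM in line 1, against 137 CPM in parental 3 and 58.3 and 49.3 CPM in parental 1 and 2. Line 1 and line 2 did not overlap, and its log2 fold change was -1.13 (SE 0.46, adjusted p = 0.225) in line 2 against line 1 by edgeR. SREBF2, which encodes the SREBP best known for sterol genes, stood at 279.8 and 244 CPM in line 2 and 291 and 209 CPM in line 1, against 429 CPM in parental 3 and 240.1 and 230.3 CPM in parental 1 and 2. It was the only one of the 32 genes that was lower in replicate 2 than in replicate 1 of line 2.

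SREBF1, whose SREBP-1 proteins act mainly on fatty acid genes, stood at 131 and 158 CPM in line 2 and 163 and 153 CPM in line 1, against 175 CPM in parental 3 and 127 and 131 CPM in parental 1 and 2. SCAP stood at 81.5 and 91.8 CPM in line 2 and 76.9 and 76.3 CPM in line 1, against 93.6 CPM in parental 3 and 65.7 and 68.2 CPM in parental 1 and 2. Both genes kept to a narrow band, with parental 3 at the top by a log2 difference of 0.44 for SREBF1 and 0.48 for SCAP.

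None of the fatty acid genes was 2-fold above in parental 3 on the log2 CPM scale, where FASN was 0.94 and SCD 0.96 above. On log2(FPKM + 1), FASN was 1.14 above and thus past 2-fold, and SCD was 0.82 above. FASN, the fatty acid synthase, stood at 654 and 1517 CPM in line 2 and 1026 and 1490 CPM in line 1, against 1156 CPM in parental 3 and 561.5 and 646 CPM in parental 1 and 2. Both second replicates of the lines were above parental 3. SCD, the stearoyl-CoA desaturase, stood at 492 and 811 CPM in line 2 and 1156 and 989 CPM in line 1, against 1176 CPM in parental 3 and 604 and 604 CPM in parental 1 and 2. Line 1 lay near parental 3 and line 2 on both sides of parental 1 and 2.

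FADS1, the delta-5 desaturase, was lower in parental 3 than in both other parental libraries. Its level was 680.1 and 1115 CPM in line 2 and 783 and 908 CPM in line 1, against 681 CPM in parental 3 and 914 and 1260 CPM in parental 1 and 2. FADS2, the delta-6 desaturase, stood at 16.8 and 19.1 CPM in line 2 and 28.4 and 24.9 CPM in line 1, against 23.1 CPM in parental 3 and 17.9 and 20.1 CPM in parental 1 and 2. Line 1 lay above every other library, and FADS2 had a log2 fold change of -0.57 (SE 0.20, adjusted p = 0.142) in line 2 against line 1 by edgeR.

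LPIN1, a phosphatidate phosphatase of lipid synthesis, stood at 73.2 and 116 CPM in line 2 and 100.1 and 108 CPM in line 1, against 115 CPM in parental 3 and 86.4 and 82.5 CPM in parental 1 and 2. Its groups overlapped. The other 2 genes, ACACA for acetyl-CoA carboxylase and ELOVL6 for a fatty acid elongase, were 0.62 and 0.39 above in parental 3 on the log2 scale.

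Leaving out parental 3, an alternative listed for every library, changed which genes passed, with 18866 genes tested. No call among the 32 genes came with any other single library left out. Parental 3 was the highest library for 21 of the 32 genes, so a fit without it is not a neutral choice for them. Without parental 3, line 1 against parental cells had a median log2 fold change of 0.69 over the 32 genes, with 30 positive values. There were 6 genes called higher in line 1, where 1.78% of all genes tested were called higher. They were HMGCS1 (1.97, SE 0.28, adjusted p = 0.00623 in edgeR's test), NSDHL (1.32), MSMO1 (1.24), EBP (1.09), IDI1 (1.00) and SC5D (0.73). NSDHL, EBP and SC5D, enzymes of sterol C4 demethylation, isomerisation and desaturation, were named after their values were seen. MSMO1 had the opposite sign with parental 3 in the fit.

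Line 2 without parental 3 had 1 gene called higher than parental cells, EBP (0.89, SE 0.19, adjusted p = 0.0217 by edgeR), where 3.08% of all genes tested were called higher. The median over the 32 genes was 0.28, with 25 positive values. HMGCS1 in line 2 was then 0.04 (SE 0.27, adjusted p = 0.947), against -1.83 with all libraries. For the 4 edited libraries together, the count of genes called was again 0, where 0.159% of all genes tested were called, with 13 genes at an unadjusted p under 0.05 (12.7% of all genes), 30 of 32 positive values and a median of 0.48. All 4 edited libraries lay above parental 1 and 2 for 12 of 32 genes, where 13.2% of all genes tested did.

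Line 2 against line 1 holds no parental library, but its test takes the spread from all groups. Without parental 3, 6 genes were called lower in line 2 than in line 1, where 7.39% of all genes tested were called lower. They were HMGCS1 (-1.93, SE 0.28, adjusted p = 0.0029 by edgeR), MSMO1 (-1.28), HSD17B7 (-1.27), STARD4 (-1.14), NSDHL (-0.73) and FADS2 (-0.58). The fold changes moved by at most 0.0091 from those with all libraries, and the SE of HMGCS1 was 0.28 without parental 3, against 0.96 with it.

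**Figure D4:**
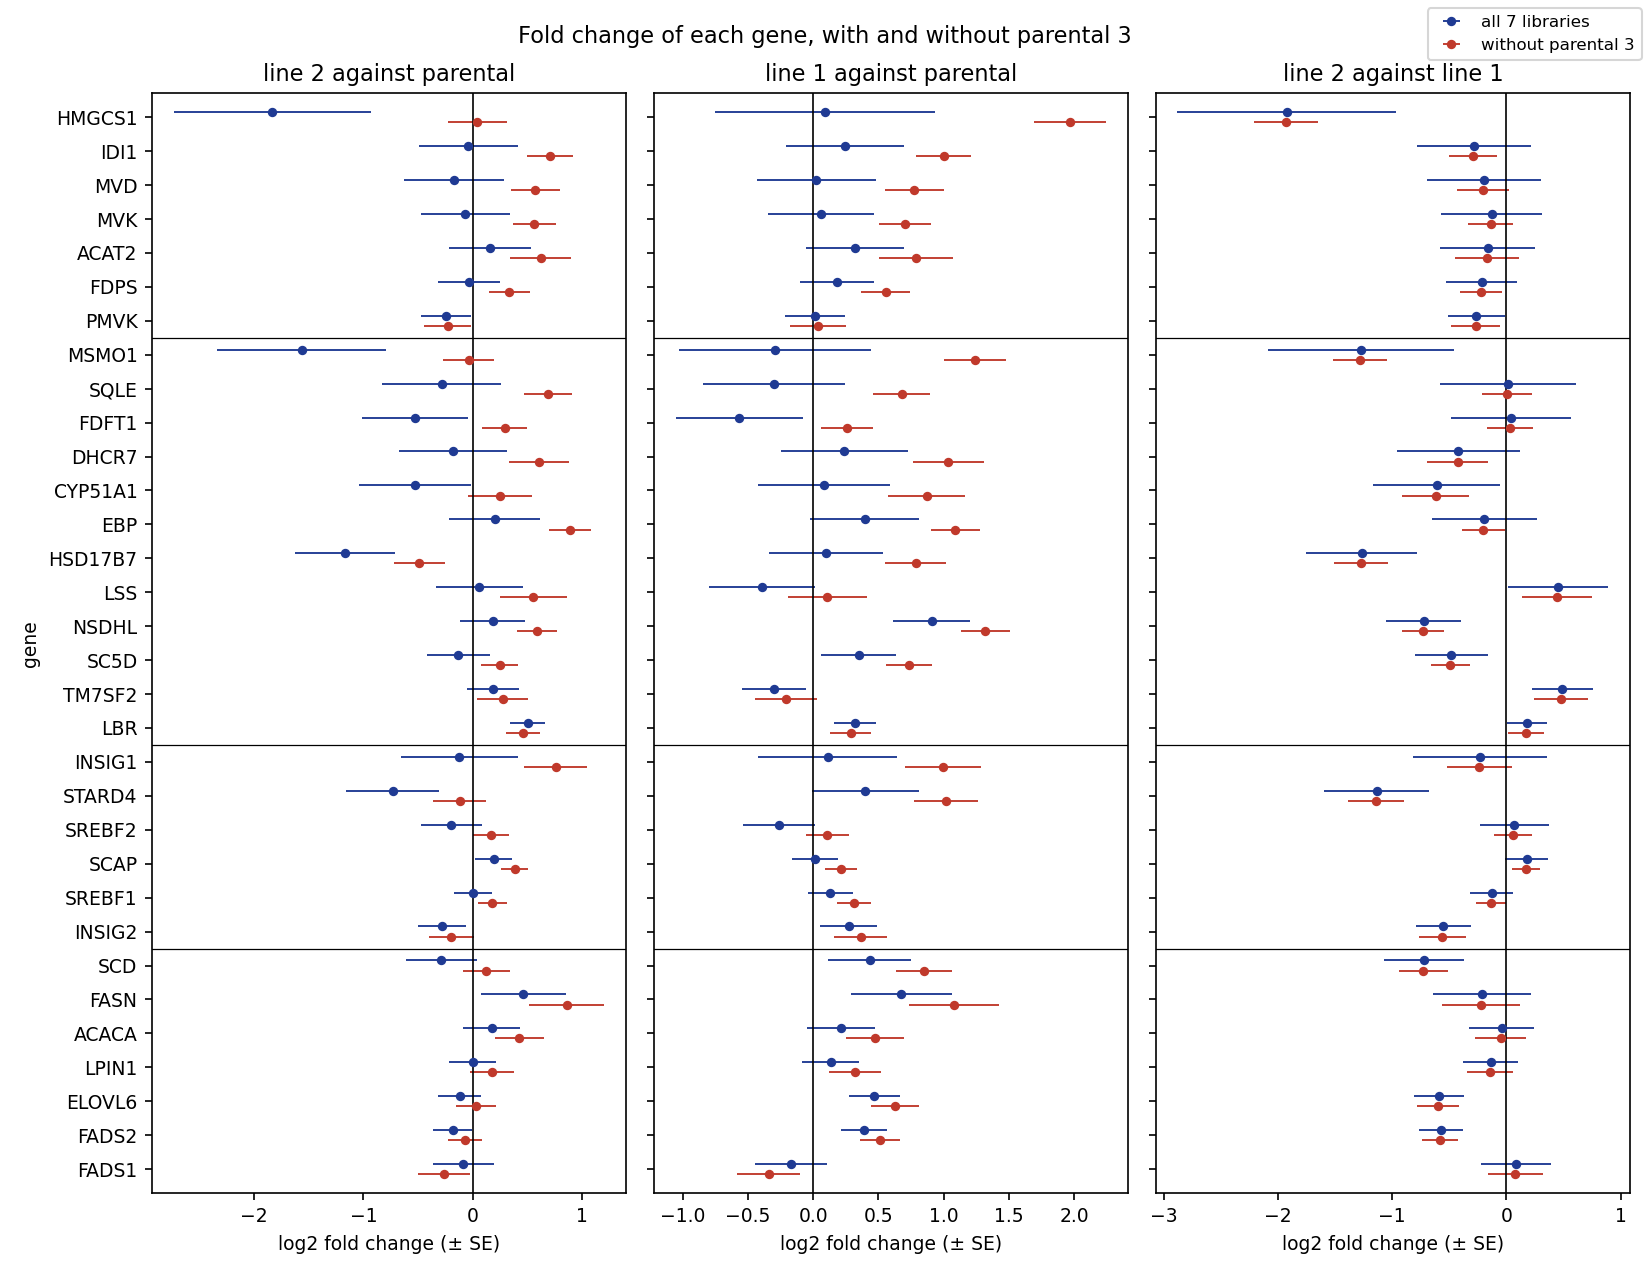
Log2 fold change (x axis, points) with its SE (bars) of each of the 32 genes in line 2 against parental, line 1 against parental and line 2 against line 1, in edgeR's fit of all 7 libraries (blue) and without parental 3 (red). HMGCS1 in line 1 against parental stands at 1.97 in red and 0.09 in blue, and its bars are shorter in red.

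The 2 libraries of line 2 also differed in these genes. For 31 of 32 genes replicate 2 was above replicate 1, where 47.8% of all genes tested were, and the median log2 difference was 0.59, beside -0.02 over all genes. The widest were FASN at 1.21, INSIG1 at 1.10 and LSS at 1.08. In line 1, replicate 2 was above replicate 1 for 12 of 32 genes (49.5% of all genes), with a median of -0.08. Parental 1 and 2 differed by a median of 0.14 in absolute log2 CPM, beside 0.18 over all genes.

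Per length, the highest median levels over the 7 libraries were those of HMGCS1 at 106 FPKM, FADS1 at 104 FPKM and SCD at 102 FPKM. HMGCS1 averaged 176 ± 122 FPKM in edited (SD, n = 4) and 281 ± 363 FPKM in parental libraries (SD, n = 3). FADS1 averaged 103 ± 21.3 FPKM in edited and 107 ± 37.7 FPKM in parental libraries, and SCD 104 ± 32.1 FPKM in edited and 92.1 ± 32.9 FPKM in parental libraries. The 3 neighbours in this order thus did not part beyond their spread. The lowest medians were those of MVK at 1.85 FPKM, PMVK at 1.58 FPKM and INSIG2 at 1.51 FPKM.

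Other genes of lipid metabolism, from lists written with earlier results known, gave few calls. Of 24 tested genes of acetyl-CoA and fatty acid handling, edgeR called 1 lower in line 2 and 1 lower in line 1 than parental cells, and 2 higher and 1 lower in line 2 than line 1. Over all genes tested, 4.48% were called lower in line 2 and 1.33% lower in line 1 than parental cells, and 2.33% higher and 4.21% lower in line 2 than line 1. ACSL6, a long-chain acyl-CoA synthetase, fell to 3.53 and 3.29 CPM in line 2, against 9.67, 9.19 and 8.74 CPM in parental 3, 1 and 2 (log2 fold change -1.43, SE 0.24, adjusted p = 0.0102 by edgeR). ACSL5, of the same family, fell to 0.646 and 0.396 CPM in line 1, against 2.14, 5.26 and 8.74 CPM in parental 3, 1 and 2 (log2 fold change -3.37, SE 0.66, adjusted p = 0.0435). In line 2 against line 1, ACSL6 was lower (-1.28, adjusted p = 0.0215), and ACSL5 (4.003, adjusted p = 0.0113) and PTPLA (1.67, adjusted p = 0.0227), a 3-hydroxyacyl-CoA dehydratase now called HACD1, were higher.

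Of 13 glycerolipid genes, 1 was called lower in line 2 than parental cells (4.48% of all genes) and 1 higher in line 2 than line 1 (2.33% of all genes). DGAT2, a diacylglycerol acyltransferase, fell to 0.0412 and 0.0766 CPM in line 2, against 1.15, 1.08 and 0.825 CPM in parental 3, 1 and 2 (adjusted p = 0.0204 by edgeR). Both line 2 values were at or under the floor of 3 counts. In line 1 DGAT2 stood at 0.592 and 0.124 CPM (log2 fold change -1.52 against parental cells, adjusted p = 0.376 by edgeR). It was not called in line 2 against line 1 (adjusted p = 0.130 by edgeR). AGPAT3, an acyltransferase of phosphatidate synthesis, stood at 172 and 193 CPM in line 2 and 113.96 and 116 CPM in line 1 (log2 fold change 0.67, adjusted p = 0.0235). None of 14 tested genes of other sterol and isoprenoid steps was called by edgeR in the 4 comparisons, with 1, 1, 1 and 2 of them at an unadjusted p under 0.05 in edited against parental, line 1 against parental, line 2 against parental and line 2 against line 1, where 11.9%, 13.4%, 21.5% and 18.4% of all genes were. The 2 most abundant were NUS1 at a mean of 102 CPM and ACAT1 at 95.4 CPM.

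Of 18 genes of SREBP processing and turnover, 1 was called lower in line 1 than parental cells (1.33% of all genes) and 3 higher in line 2 than line 1 (2.33% of all genes), which was not tested as a set. MBTPS2, the site-2 protease that releases SREBPs, stood at 19.3 and 17.1 CPM in line 2 and 7.46 and 7.62 CPM in line 1 (log2 fold change 1.27, SE 0.23, adjusted p = 0.0137 by edgeR), against 12.4, 15.9 and 17.5 CPM in parental 3, 1 and 2. ERLIN2, an endoplasmic reticulum scaffold protein, fell to 37.8 and 34.2 CPM in line 1, against 52.4, 67.6 and 67.8 CPM in parental 3, 1 and 2 (log2 fold change -0.80, SE 0.16, adjusted p = 0.044). It was higher in line 2 than line 1 by 0.78 (adjusted p = 0.0285), as was UBE2G2, a ubiquitin-conjugating enzyme of the endoplasmic reticulum, by 0.64 (adjusted p = 0.0341). Of 11 tested genes of sterol export, esterification and LXR targets, edgeR called 1, NR1H2 for the sterol-sensing receptor LXR beta. It was higher in line 2 than parental cells by 0.64 (SE 0.15, adjusted p = 0.0369), where 1.34% of all genes were called higher. In line 1 it was higher by 0.69 (SE 0.15, adjusted p = 0.0583 by edgeR). Line 2 against line 1 stood at -0.05 (adjusted p = 0.926). NR1H2 had 54.2 and 66.0 CPM in line 2 and 59.1 and 65.3 CPM in line 1, against 42.3, 37.2 and 36.5 CPM in parental 3, 1 and 2. In parental 3 the median differences of these 5 lists were -0.06, 0.23, 0.13, 0.36 and 0.33, in the order given here, beside 0.95 for the 32 genes, with no test.

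The authors' deposited table of edited against parental cells gave 0 of the 32 genes an adjusted p under 0.05, with LBR the smallest at 0.266. The authors' deposited table has 437 genes under 0.05, of 21213 with an adjusted p.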

How the data were processed

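The 7 libraries are stranded poly-A libraries of K562 RNA, read as pairs over 150 cycles, per the labels' protocols. Per the submitters' processing notes, the builds were GRCh37 and hg19 and the tools included STAR 2.7.3a, HTSeq 0.11.2 and Cufflinks 2.2.1, with DESeq2 and, for trimming, cutadapt 2.5. Raw gene counts were deposited, with FPKM values in which 114 repeated identifiers were summed here, and a comparison table with log2 fold changes, p-values and adjusted p-values. A further 7 columns of per-sample values were not used here.

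The counts went into edgeR 4.0.16 under R 4.3.3 (filterByExpr, TMM scaling, glmQLFit and glmQLFTest, Benjamini-Hochberg over 18160 genes at 0.05). A fit of 2 groups gave edited against parental cells, and 1 fit of 3 groups gave the lines. The SE is the size of the log2 fold change over the square root of F. Single parental libraries were compared on log2 CPM with a prior count of 2. Alternatives used DESeq2 1.42.0 size factors and Wald test, limma 3.58.1 on log2(FPKM + 1) and log2(FPKM + 0.1), other filters, a 3-group fit, a replicate block, and each library left out. Fits without parental 3 on the genes kept with all libraries were chosen after seeing the data. The fit of edited against parental cells was also run on simulated counts, in which the libraries of a group shared the same mean per gene. The line comparisons were not simulated. Floors of 3 counts cover counting error only.

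The genes, lists, motifs and marker sets were chosen with earlier results of these data known. Values in every library are given for 16 anchor genes and for the 4 genes farthest above and 4 farthest below in parental 3. Listed genes of lipid metabolism are named where they were called, at most 6 a list, or else the 2 most abundant are named. These listed genes are not always given with values in every library. The lists held 113 symbols, older and newer names included, and 108 matched a count row. Exon overlaps came from GENCODE 29 on GRCh38 and upstream sequences from RefSeq on the same build, which is later than the files' and gave no read positions.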

Additional observations from a re-analysis of the deposited data

Results flagged for a closer look

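Among the 4 edited libraries, a library's gap to the nearest other one was set against the whole range of the 4, and a share above Dixon's 95% value was singled out. This was met by 2 of 32 genes, where chance gives about 1.6. Line 2 replicate 1 was the low library in both, at 172 CPM for FDPS, the farnesyl diphosphate synthase, and at 62.5 CPM for DHCR7.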

How the results depend on the processing

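With DESeq2's size factors or a mean of at least 2 CPM, the sterol and fatty acid genes again gave 0 calls in the 4 comparisons, and counts over all genes stayed within 1.5 times those of the first fit. Counts over all genes in edited against parental, line 1 against parental, line 2 against parental and line 2 against line 1, beside 33, 318, 1057 and 1188 at first, were 464, 907, 2032 and 1900 by DESeq2's Wald test. They were 8, 23, 196 and 209 by limma on log2(FPKM + 1), and 12, 53, 258 and 272 on log2(FPKM + 0.1). With no filter on low counts they were 234, 1167, 2477 and 2158, of 36189 genes tested. The mean of the lines in a 3-group fit gave 619 for edited against parental. Among the 32 genes, DESeq2 called 0, 0, 1 and 0, limma 0 in each, and the unfiltered fit 0, 3, 6 and 7. The unfiltered calls were 2 higher and 1 lower in line 1 and 1 higher and 5 lower in line 2 against parental cells. All 7 in line 2 against line 1 were lower. The cause of these differences between settings was not tested.

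Leaving out 1 library at a time gave 2 to 32, 44 to 931, 259 to 1848 and 327 to 2344 genes, of which 0, 0 to 6, 0 to 1 and 0 to 6 were among the 32, and the highest counts of the last 3 comparisons came without parental 3. Without parental 3 but on the genes of the full filter, added after seeing the data, line 1, line 2 and line 2 against line 1 gave 5, 1 and 6 of the 32 genes and 872, 1778 and 2240 of all. MSMO1 in line 1 was then 1.22, against -0.29 with all libraries, and ranged from -0.71 to 1.24 over the single libraries left out.

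The replicate block, in which parental 3 has no partner and adds nothing by construction, called 0, 18, 8 and 8 of the 32 genes and 7, 2272, 3887 and 3568 of all. Under it MSMO1 and SQLE in line 1 were 1.22 and 0.68, and IDI1 and SQLE in line 2 were 0.69 and 0.66, with signs opposite to those without the block. Differences between replicates 2 and 1 correlated across genes by 0.302 between the lines and by 0.104 and 0.0896 between line 1 or line 2 and parental cells. Not every pair passed 0.1, so replicates are taken as sharing only a number. Of 1769 other values for single genes, 228 changed sign with no call on either side. Parental 3 had 14 to 16 genes past 2-fold under the other scales, and they were not the same genes on every scale.

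The least abundant of the 32 genes stood far above the floor of 3 counts, which covers counting error only. Parental 3 and line 2 replicate 1 had the most counts of the 7 libraries, at 72577827 and 69468590. The part of depth in the results was not tested. Parental 3 stood apart from parental 1 and 2, and the libraries of line 2 from each other by a median of 0.59 on the log2 scale, and what sets the precision was not tested.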
